A study of Mus musculus with 6 samples.

Results

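The regulators described here are transcription factors, and one coactivator, that mark or specify tuft cells: Pou2f3, Colca2, Spib, Gfi1b, Ascl2, Sox9, Hmx2, Hmx3 and Ovol3. They were selected on presence in the deposited count table by gene symbol, which rests on their UMI counts, and 8 of these 9 are among its 9088 genes. Gfi1b, a zinc finger repressor of megakaryocyte and erythroid cells that is also used as a tuft cell marker, is absent from the table and has no value. Every gene in the table reached 6 or more unique molecular identifiers (UMIs, tags that count each captured RNA molecule once) in at least 1 library. Hmx2 stands just inside that bound, with 8 UMIs in its highest library.

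All cells came from thymi of young male wild-type (WT) mice, were sorted as tuft cells, spun into aggregates and kept ex vivo for 12 h and then 24 h in new medium. The 3 rIL-13 libraries are from cells given recombinant interleukin 13 at 20 ng/mL for a further 24 h, and the 3 vehicle libraries from cells given PBS for the same time. Bulk MARS-seq counted the 3' ends of polyadenylated transcripts. The comparison asks how the cultured tuft cells' transcripts differ after exposure to this type 2 cytokine. The labels give neither the sorting gate nor the origin of the replicates (separate cultures, animals or neither), so p-values measure only how these 6 libraries vary, and that variation may be technical.

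Tuft cells are rare chemosensory epithelial cells that detect luminal signals through a taste-type cascade and answer with cytokines, leukotrienes and acetylcholine. In mice their formation depends on POU2F3, a POU-domain factor that binds the octamer motif in DNA and needs coactivators of the OCA family. The other regulators come from families that direct quite different lineages elsewhere, among them B cells and microfold cells for SPIB, intestinal stem cells for ASCL2, cartilage and epithelial progenitors for SOX9, and the inner ear for HMX2 and HMX3.

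Listed UMIs per library ran from 248028 to 295614 with rIL-13 and from 394513 to 489919 with vehicle, so counting error is larger in the rIL-13 libraries. As markers of the labelled cell type, 45 of 50 tuft effector genes are in the table. They include receptors, channels, enzymes and signalling proteins such as Trpm5 and Alox5, and structural genes such as Avil, Vil1, Krt8 and Krt18. Their summed level was 13858, 20568 and 22150 CPM (UMIs scaled to a common library size with TMM factors) in rIL-13 replicates 1, 2 and 3, against 13702, 15971 and 14290 CPM in the vehicle replicates. On this sum rIL-13 replicate 1 lay among the vehicle libraries and apart from the other rIL-13 libraries. The summed level of 12 listed fibroblast markers was 3496, 1841 and 1174 CPM with rIL-13, against 2753, 2170 and 3280 CPM with vehicle. In bulk RNA, fewer cells of a type and less RNA per cell cannot be told apart, here and in every result that follows.

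Markers of the other cells known to use these factors were mostly missing, apart from those of microfold cells. Of 15 B cell markers 1 is listed, Cd79b, a part of the B cell receptor, with 9 to 18 UMIs per rIL-13 library and 18 to 25 per vehicle library, while Cd79a, Ms4a1 and Pax5 are not listed. None of 17 megakaryocyte and erythroid markers is listed. Of 11 plasmacytoid dendritic cell markers 4 are listed, without Siglech, and held 32 to 65 UMIs with rIL-13 and 54 to 57 with vehicle. Their most abundant genes were the interferon-induced Bst2, with 14 to 19 UMIs with rIL-13 and 42 to 43 with vehicle, and Ly6d, with 6, 21 and 41 against 10, 10 and 8, and both are also made by epithelial cells. Of 12 cartilage genes associated with SOX9, Col9a1 and Col9a3 are listed, with 6 to 11 UMIs in all with rIL-13 and 6 to 12 with vehicle, and Col2a1 and Acan are not. Of 11 microfold cell markers other than Spib 6 are listed, holding 0.184 to 0.186% of UMIs with rIL-13 and 0.151 to 0.231% with vehicle, led by the widely expressed Anxa5 and Marcksl1. Myeloid markers held 4 to 38 UMIs with rIL-13 and 26 to 84 with vehicle, from Csf1r and Cd68 alone. Thymocyte markers held 11 to 21 and 4 to 67, from Dntt and Thy1, and Thy1 is in the fibroblast list too. The part of these cells in the results below was not tested.

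None of the 8 regulators changed with rIL-13 past the threshold of the test. In Colca2, Hmx3 and Spib all 3 rIL-13 libraries stood above all 3 vehicle libraries, with log2 fold changes of 1.46, 1.33 and 0.73. Pou2f3 itself, Ascl2 and Ovol3 overlapped between groups. Of the 6 regulators that passed the filter on low counts, 0 passed at an adjusted p under 0.05 in the quasi-likelihood test of edgeR, where 0.0584% of all 5135 tested genes did in either direction and 0.0389% as higher. DESeq2 and limma voom called 0 as well. Hmx2 and Hmx3 fell under the filter and did not pass in the fit without a filter, where 0.077% of 9088 genes did. At an unadjusted p under 0.05, 2 of the 6 were higher with rIL-13, Colca2 and Spib, beside 3.08% of tested genes (5.49% in either direction). Hmx3 reached it in the unfiltered fit, which makes 3 of 8 regulators there, beside 2.93% of all genes. In CPM, 3 of 8 did not overlap between groups and were higher with rIL-13, beside 5.12% of all genes, and 0 did so and were lower, beside 5.92%. The shares of regulators that were higher stand above these backgrounds, but the genes were picked with earlier results of the same libraries in view and are not an independent sample.

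**Figure D1:**
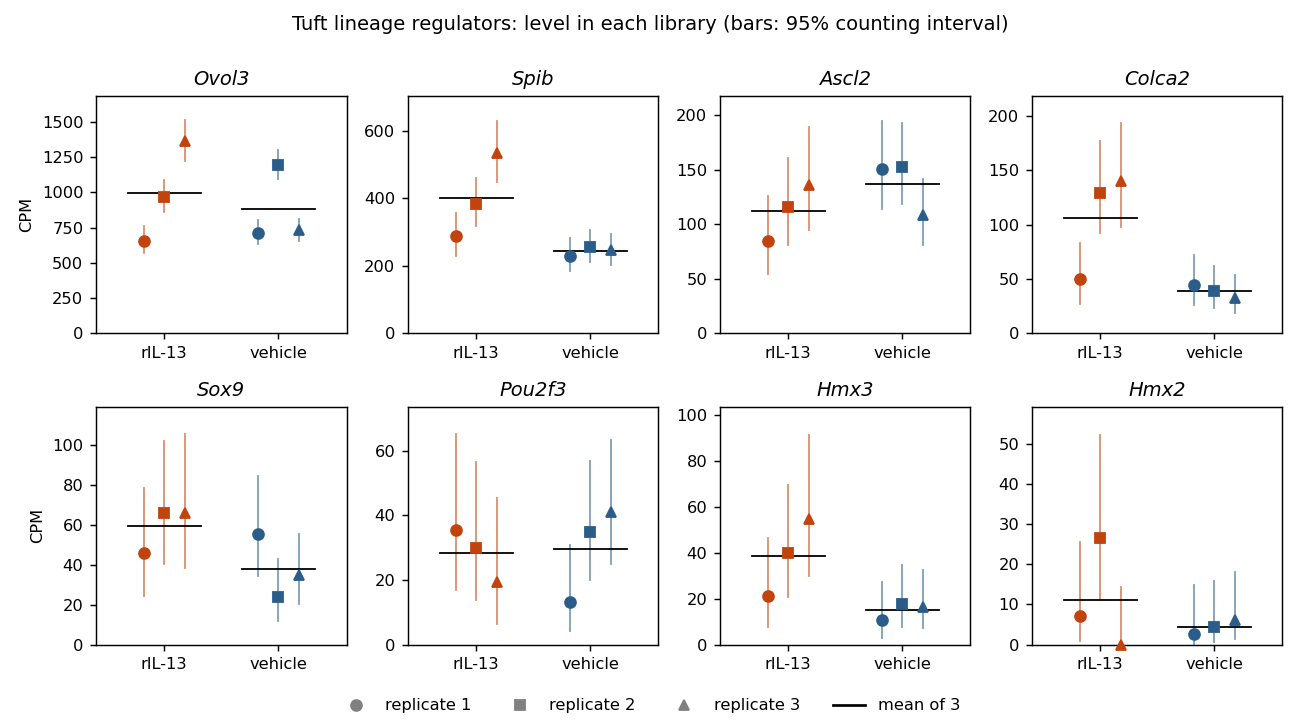
Level of each regulator in CPM (vertical axis, linear, a separate scale in each panel) in the rIL-13 and vehicle libraries. Points are libraries, shaped by replicate, vertical bars are 95% Poisson counting intervals and horizontal lines are means of 3. Spib, Colca2 and Hmx3 are higher in all 3 rIL-13 libraries than in all 3 vehicle libraries, and the other panels overlap.

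As 1 tag is counted per transcript at its 3' end, CPM was compared between genes without dividing by length. The regulators spanned a wide range of levels. With rIL-13, Ovol3 and Spib stood above the rest without overlap, at 998 and 401 CPM. Below them, Ascl2 (112), Colca2 (106), Sox9 (59.4), Hmx3 (38.5), Pou2f3 (28.2) and Hmx2 (11.2) each overlapped with the next. With vehicle the order ran from Ovol3 (880.4 CPM) through Spib (243), Ascl2 (137), Colca2 (39.0), Sox9 (38.1), Pou2f3 (29.7) and Hmx3 (14.8) to Hmx2 (4.38). Library values of neighbours in that order did not overlap for Ovol3 and Spib, Spib and Ascl2, Ascl2 and Colca2, and Hmx3 and Hmx2, and overlapped for the others. Of all listed genes, 98.2% had a mean vehicle level at or below that of Ovol3, 92.0% for Spib, 45.7% for Pou2f3 and 1.38% for Hmx2. Pou2f3, on which tuft cell formation depends, thus lay near the middle of the table, at 5 to 20 UMIs per library.

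Pou2f3, on the minus strand of chromosome 9 at 43123939 to 43210369 (mm10, protein-coding), had 10, 9 and 5 UMIs in rIL-13 replicates 1, 2 and 3, against 5, 16 and 20 in the vehicle replicates. Scaled to library size this was 35.4, 29.8 and 19.4 CPM with rIL-13, against 13.2, 34.9 and 40.9 CPM with vehicle. The groups overlapped fully, with vehicle replicate 1 the lowest library of all. On the log2 scale rIL-13 over vehicle came to -0.09 ± 0.50 (SE, 3 libraries per group, adjusted p = 0.993 by edgeR). The 95% interval ran from 0.453-fold to 1.96-fold, and a change within it was not detectable at this depth. The sign turned with the library left out, to 0.11 without rIL-13 replicate 3, 0.02 without vehicle replicate 2 and 0.21 without vehicle replicate 3.

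Colca2, which encodes a coactivator of POU2F3 described in human tuft-like small cell lung cancer, had the highest log2 fold change of the regulators. It had 14, 39 and 36 UMIs in rIL-13 replicates 1, 2 and 3, against 17, 18 and 16 in the vehicle replicates, from deeper libraries. The levels were 49.5, 129 and 140 CPM with rIL-13, against 44.9, 39.3 and 32.8 CPM with vehicle. Replicates 2 and 3 of the rIL-13 group stood about together and well above the vehicle libraries, while rIL-13 replicate 1 was just above the highest of them. The means were 106 ± 49.4 CPM with rIL-13 and 39.0 ± 6.06 CPM with vehicle (SD, n = 3 each), a log2 fold change of 1.46 ± 0.38 (SE, 2.75-fold, 95% interval 1.57-fold to 4.82-fold). It did not pass over all genes (edgeR adjusted p = 0.367, unadjusted p = 0.00131). Without rIL-13 replicate 1, the rIL-13 library nearest to vehicle for Colca2, the log2 fold change was 1.80 ± 0.33 and passed (edgeR adjusted p = 0.0119). Calls rose over the whole table in that setting, to 29 of 6099 tested genes, against 3 of 5135 with all 6 libraries. With any other library left out the Colca2 value ran from 1.21 to 1.56 and did not pass. In the authors' deposited table, with the sign turned so that positive is higher with rIL-13, Colca2 stood at 1.46 (adjusted p = 0.835).

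The gene next to Colca2 on the same strand of chromosome 9 is 1810046K07Rik. It is protein-coding and comes from the list of POU2F factors, their coactivators and relatives. Colca2 lies at 51270258 to 51278569 and 1810046K07Rik at 51289686 to 51328917 (mm10), 11116 bases apart. An antisense transcript, 2010007H06Rik, overlaps the start of Colca2 by 57 bases and is not in the table. 1810046K07Rik had 104, 147 and 150 UMIs with rIL-13, against 145, 211 and 164 with vehicle. Its level was 479 ± 108 CPM with rIL-13 and 393 ± 62.8 CPM with vehicle (SD, n = 3 each), with more UMIs than Spib in all 6 libraries, and the log2 difference of 0.30 ± 0.24 (SE) did not pass (edgeR adjusted p = 0.922). The neighbours' fold changes were thus 1.46 for Colca2 and 0.30 for 1810046K07Rik, and the difference between them was not tested. Of the 11 symbols in that list 3 are in the table and this was the single one tested. Symbols were matched as written, so some of the others may be other names of listed genes. Pou2f1, the widely expressed octamer-binding factor, had 3, 2 and 6 UMIs with rIL-13 and 6, 11 and 4 with vehicle, and Pou2f2 and Pou2af1, the lymphoid factor and coactivator, are not listed.

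Promoter windows of both genes, 250 bases before to 50 after the annotated start in RefSeq (GRCm38.p6, the assembly of mm10), are shown because POU2F factors bind the octamer ATGCAAAT, searched on both strands. Capitals mark matches to it, at chr9:51328869-51329168 for 1810046K07Rik and chr9:51278505-51278804 for Colca2, both on the minus strand and written 5′ to 3′ along the gene.
1810046K07Rik: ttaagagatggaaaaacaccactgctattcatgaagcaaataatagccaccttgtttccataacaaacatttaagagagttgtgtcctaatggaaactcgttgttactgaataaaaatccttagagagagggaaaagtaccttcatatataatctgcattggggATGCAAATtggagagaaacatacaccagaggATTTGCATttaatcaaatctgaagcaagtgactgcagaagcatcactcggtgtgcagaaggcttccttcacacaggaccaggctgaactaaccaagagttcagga
Colca2: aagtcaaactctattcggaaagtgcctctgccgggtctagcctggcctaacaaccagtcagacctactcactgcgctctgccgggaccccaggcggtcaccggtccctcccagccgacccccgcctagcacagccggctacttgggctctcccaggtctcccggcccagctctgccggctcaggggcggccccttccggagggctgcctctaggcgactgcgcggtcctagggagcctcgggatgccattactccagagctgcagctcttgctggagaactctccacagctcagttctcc
The first of 2 windows of 1810046K07Rik held the octamer at positions -86 and -55 from the start site, once on each strand. Of 32851 RefSeq promoter windows of the same length, 1.74% held at least 1 octamer and 0.107% held 2 or more. No octamer was found in these letters of the Colca2 window, nor in any window of Spib, Gfi1b, Ascl2, Hmx2, Hmx3 or Ovol3. Windows were at hand for 7 of the 9 regulators, without Pou2f3 and Sox9. A match is a description of the sequence and not evidence of binding.

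Spib encodes an ETS-family factor of B cells, plasmacytoid dendritic cells and microfold cells that is also enriched in tuft cells. It lies on the minus strand of chromosome 7 at 44525993 to 44532071 (mm10). It had 81, 116 and 137 UMIs in rIL-13 replicates 1, 2 and 3, against 87, 117 and 120 in the vehicle replicates. The levels were 287, 384 and 532 CPM with rIL-13, against 230, 255 and 246 CPM with vehicle. All rIL-13 libraries were higher, and they were also much more spread, at 401 ± 124 CPM with rIL-13 and 243 ± 12.9 CPM with vehicle (SD, n = 3 each). The log2 fold change was 0.73 ± 0.25 (SE, 1.66-fold, 95% interval 1.15-fold to 2.39-fold) and did not pass over all genes (edgeR adjusted p = 0.661, unadjusted p = 0.00888). It was 0.92 ± 0.23 without rIL-13 replicate 1 (edgeR adjusted p = 0.0778) and 0.47 ± 0.26 without rIL-13 replicate 3, so replicate 3 carried much of its size. The single listed B cell marker, Cd79b, was at 0.10 ± 0.39 (edgeR adjusted p = 0.992). Of the plasmacytoid dendritic cell markers, Ly6d was also highest in rIL-13 replicates 2 and 3, Tcf4 had 6, 4 and 7 UMIs with rIL-13 against 2, 4 and 0 with vehicle, and Bst2 was lower in every rIL-13 library (-0.78 ± 0.31, edgeR adjusted p = 0.804). Their part in the Spib values was not tested.

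Hmx2 and Hmx3 encode homeobox factors of the inner ear and hypothalamus that are among the transcription factors enriched in tuft cells. They are neighbours on the plus strand of chromosome 7, Hmx3 at 131542867 to 131544925 and Hmx2 at 131548773 to 131558014 (mm10), 3847 bases apart. The annotation of Fgfr2 on the minus strand covers both, and Fgfr2 is not in the table. Hmx3 had 6, 12 and 14 UMIs with rIL-13, against 4, 8 and 8 with vehicle, or 21.2, 39.7 and 54.4 CPM against 10.6, 17.4 and 16.4 CPM. The groups did not overlap, but the counts are small: the 95% Poisson interval was 29.7 to 91.3 CPM in rIL-13 replicate 3 and 7.53 to 34.4 CPM in vehicle replicate 2. Its log2 fold change in the unfiltered fit was 1.33 ± 0.53 (SE, 2.52-fold, 95% interval 0.26 to 2.41 on the log2 scale, edgeR adjusted p = 0.825).

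Hmx2 was near the detection limit, with 2, 8 and 0 UMIs with rIL-13, against 1, 2 and 3 with vehicle. The count of 0 in rIL-13 replicate 3 allows a level of up to 11.7 CPM by the limit of 3 counts, which is above all 3 vehicle libraries and covers counting error only. The two-sided 95% Poisson interval plotted for that library reaches 14.3 CPM. Its log2 fold change of 1.30 ± 1.17 (unfiltered fit, edgeR adjusted p = 0.958) came from rIL-13 replicate 2, and it was -0.26 ± 1.85 without that library. Whether Hmx2 followed its neighbour Hmx3 could not be read at this depth.

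Sox9, an HMG-box factor of epithelial progenitors and cartilage that also marks intestinal tuft cells, lies on the plus strand of chromosome 11 at 112782224 to 112787760 (mm10). It had 13, 20 and 17 UMIs with rIL-13, against 21, 11 and 17 with vehicle, and 46.0, 66.2 and 66.1 CPM against 55.4, 24.0 and 34.8 CPM. rIL-13 replicates 2 and 3 were the highest libraries, and replicate 1 lay below vehicle replicate 1. The difference of 0.67 ± 0.41 in log2 (SE) did not pass (edgeR adjusted p = 0.866), with a 95% interval from -0.18 to 1.52. It was 1.01 without vehicle replicate 1 and 0.41 without vehicle replicate 2. Fibroblast markers, given above, were lowest of all in rIL-13 replicates 2 and 3. Among the vehicle libraries both they and Sox9 were lowest in replicate 2. The part of fibroblasts in the Sox9 values was not tested.

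Ascl2 is a basic helix-loop-helix factor and Wnt target of intestinal stem cells that is also found in tuft and taste cells. It lies on the minus strand of chromosome 7 at 142966829 to 142969264 (mm10). It was the regulator with the largest difference in the negative direction, and a small one, with 24, 35 and 35 UMIs with rIL-13 against 57, 70 and 53 with vehicle. The levels were 84.9, 116 and 136 CPM with rIL-13, against 150, 153 and 109 CPM with vehicle, and the groups overlapped through vehicle replicate 3. In log2, rIL-13 over vehicle came to -0.28 ± 0.29 (SE, adjusted p = 0.932 by edgeR), with a 95% interval of 0.546-fold to 1.25-fold. It kept a negative sign with each library left out, from -0.44 to -0.11.

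Ovol3, an OVO-like zinc finger factor on the minus strand of chromosome 7 at 30233439 to 30235725 (mm10), was the most abundant of the regulators. It had 186, 293 and 351 UMIs in rIL-13 replicates 1, 2 and 3, against 271, 548 and 357 in the vehicle replicates. The levels were 658, 970 and 1364 CPM with rIL-13, against 715, 1195 and 731 CPM with vehicle. Each group held both low and high libraries, with counting intervals far narrower than the spread, and the lowest and the highest library of all were rIL-13 replicates 1 and 3. In log2, rIL-13 over vehicle came to 0.20 ± 0.28 (SE, adjusted p = 0.955 by edgeR), with a 95% interval of 0.75-fold to 1.75-fold, and turned to -0.11 without rIL-13 replicate 3.

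The 3' end of Ovol3 faces that of Polr2i, which encodes a subunit of RNA polymerase II, on the plus strand at 30231948 to 30233390, with 48 bases between them. The annotated genes do not overlap. Polr2i overlaps Tbcb on the minus strand by 325 bases, at the start of Polr2i and away from these facing ends. How tags near the ends were assigned, and whether strand was used, is not given in the sources used here. The gene of origin of tags near these ends is therefore uncertain. Polr2i, picked with its values in view, had 59, 57 and 52 UMIs with rIL-13 and 42, 66 and 74 with vehicle, fewer than Ovol3 in every library. Its level was 200 ± 10.2 CPM with rIL-13 and 135 ± 21.6 CPM with vehicle (SD, n = 3 each), 0.56 ± 0.25 in log2 (SE, adjusted p = 0.854 by edgeR).

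The windows of Ovol3 (chr7:30236716-30237015) and Spib (chr7:44532022-44532321), both on the minus strand of GRCm38.p6 from RefSeq, are shown as the most abundant regulators, with the ETS core GAGGAA on either strand in capitals. The RefSeq start of Ovol3 lies upstream of the GENCODE M21 gene given above.
Ovol3: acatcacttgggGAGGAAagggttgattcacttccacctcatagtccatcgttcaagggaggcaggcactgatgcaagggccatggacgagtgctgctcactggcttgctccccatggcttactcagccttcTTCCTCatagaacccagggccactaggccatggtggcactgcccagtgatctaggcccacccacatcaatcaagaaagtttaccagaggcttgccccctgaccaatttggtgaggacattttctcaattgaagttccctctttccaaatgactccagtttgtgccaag
Spib: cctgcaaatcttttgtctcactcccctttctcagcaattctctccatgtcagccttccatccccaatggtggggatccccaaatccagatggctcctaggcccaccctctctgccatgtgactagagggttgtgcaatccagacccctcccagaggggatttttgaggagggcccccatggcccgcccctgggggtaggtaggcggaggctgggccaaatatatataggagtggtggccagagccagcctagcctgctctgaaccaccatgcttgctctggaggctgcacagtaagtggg
The Ovol3 window held the ETS core at positions -238 and -118 from the start site, and the Spib window held none. The core is common, being in 28.3% of all windows, and was also in the second windows of Hmx2 and 1810046K07Rik. Of the other motifs searched, the GFI core AAATCA (14% of windows) was in the windows of Gfi1b, Hmx3 and 1810046K07Rik, and the SOX core ACAAT (31%) was in that of Ascl2. The E-box CAGCTG (16.3%) was in none of the windows.

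**Figure D2:**
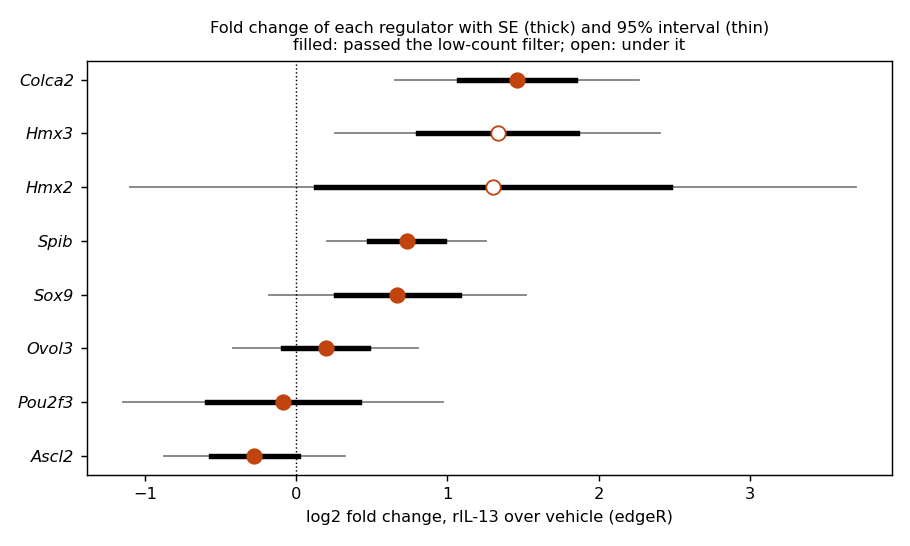
Log2 fold change of rIL-13 over vehicle for each regulator (horizontal axis), with the SE as thick bars and the 95% interval as thin bars, from edgeR with 3 libraries per group. The intervals of Colca2, Hmx3 and Spib lie above 0, but none passed after adjustment over all genes, with adjusted p of 0.367, 0.825 and 0.661.

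The regulators did not vary together as 1 group across the 6 libraries. Relative to the vehicle mean on a log2 CPM scale, Colca2 deviated by 0.32, 1.61 and 1.72 in rIL-13 replicates 1, 2 and 3, Hmx3 by 0.41, 1.17 and 1.58, and Spib by 0.23, 0.65 and 1.11. The tuft effector sum deviated by -0.08, 0.49 and 0.60 in the same libraries. These regulators and the tuft effector sum were all highest in rIL-13 replicates 2 and 3, and rIL-13 replicate 1 was the lowest of its group for each. In rIL-13 replicate 1 the regulators still lay above every vehicle library. The tuft effector sum there was below vehicle replicates 2 and 3, at 0.13 and -0.03. Over the 6 libraries, which share their depth and scaling, Pearson's r was 0.93 between Colca2 and Spib, 0.92 between Colca2 and Hmx3 and 0.98 between Spib and Hmx3. Pou2f3 took another course, at 0.32, 0.11 and -0.39 in the rIL-13 libraries, and its r with Colca2 was -0.32 and with Spib -0.18. Ascl2 had r of 0.05 with Colca2 and -0.01 with Spib. High values were not limited to Colca2, Hmx3 and Spib. Sox9 had r of 0.79 with Colca2, and Ovol3 had 0.81 with the tuft effector sum. With that sum r was 0.92 for Colca2, 0.92 for Spib and 0.93 for Hmx3. It was 0.52 for Sox9, 0.23 for Ascl2, 0.10 for Hmx2 and -0.15 for Pou2f3. These correlations over 6 points are descriptions only.

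**Figure D3:**
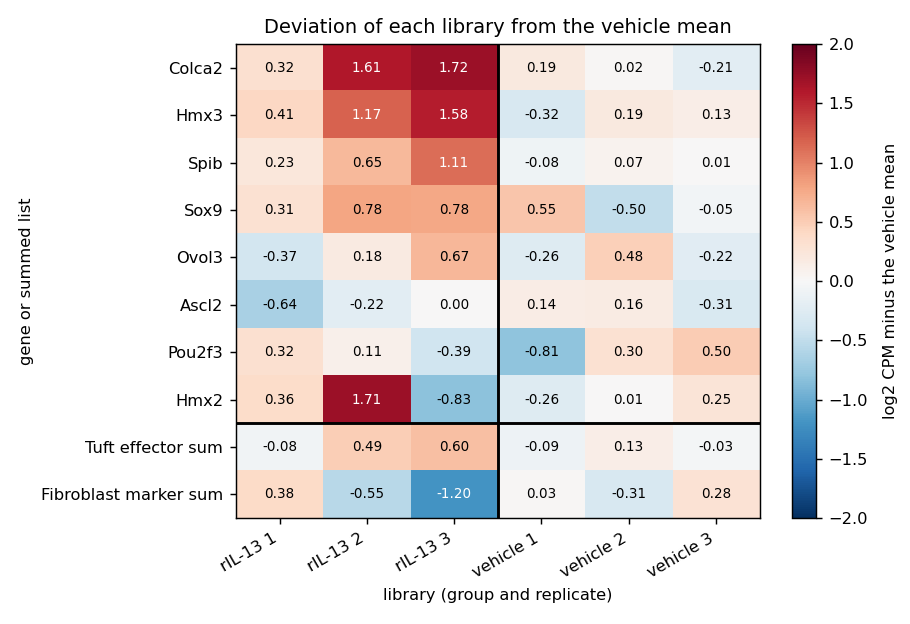
Deviation of each library (columns) from the vehicle mean in log2 CPM (prior count 2 for single genes) for each regulator and for the summed tuft effector and fibroblast marker genes (rows). Colca2, Hmx3 and Spib are highest in rIL-13 replicates 2 and 3, where the tuft effector sum is 0.49 and 0.60 above the vehicle mean and the fibroblast sum is lowest.

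Because tuft effector transcripts differed between libraries, the regulators were also set against them, a scaling chosen after the data were seen. Spib had 20.7, 18.7 and 24.0 UMIs per 1000 tuft effector UMIs in rIL-13 replicates 1, 2 and 3, against 16.8, 16.0 and 17.2 in the vehicle replicates. On this scale Spib still did not overlap between groups, though rIL-13 replicate 2 came close. Colca2 had 3.58, 6.28 and 6.32 with rIL-13, against 3.27, 2.46 and 2.29 with vehicle, again without overlap and with rIL-13 replicate 1 near the vehicle libraries. Hmx3 had 1.53, 1.93 and 2.46 with rIL-13, against 0.77, 1.09 and 1.15 with vehicle.

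Ascl2 showed the opposite order. It had 6.13, 5.64 and 6.14 UMIs per 1000 tuft effector UMIs in the rIL-13 replicates, against 11.0, 9.56 and 7.59 in the vehicle replicates, lower in every rIL-13 library and with little spread among them. Such an order was common on this scale, in 11.9% of all genes, and in CPM Ascl2 overlapped between groups. Pou2f3 had 2.55, 1.45 and 0.88 with rIL-13, against 0.96, 2.18 and 2.87 with vehicle, and overlapped. Ovol3 had 47.5, 47.2 and 61.6 with rIL-13, against 52.2, 74.8 and 51.1 with vehicle, and Sox9 had 3.32, 3.22 and 2.98 against 4.04, 1.50 and 2.44. Both overlapped.

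Without overlap on this scale, 3 of 8 regulators were higher, beside 1.56% of all genes. Lower without overlap was 1 of 8, Ascl2, which is about the share of all genes, 11.9%. The scaling itself moved the median log2 fold change of all tested genes to -0.33, against -0.00 with TMM factors. Fold changes on it are thus relative to the tuft effector sum and not to the typical gene. With tuft effector UMIs as library size, edgeR gave log2 fold changes of 1.04 ± 0.39 for Colca2, 0.96 ± 0.52 for Hmx3, 0.34 ± 0.31 for Spib and 0.28 ± 0.44 for Sox9. It gave -0.19 ± 0.33 for Ovol3, -0.39 ± 0.53 for Pou2f3 and -0.65 ± 0.35 for Ascl2. None was past the threshold (edgeR adjusted p from 0.679 to 0.854). Relative to the shift of all genes, the values were 1.36 for Colca2, 0.67 for Spib, 0.61 for Sox9, 0.14 for Ovol3, -0.07 for Pou2f3 and -0.32 for Ascl2, beside 1.46, 0.73, 0.67, 0.20, -0.09 and -0.28 in the same order with TMM factors. Taking off a shift common to all genes undoes most of the scaling. The values had to come out near those with TMM factors and are no separate check of them.

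**Figure D4:**
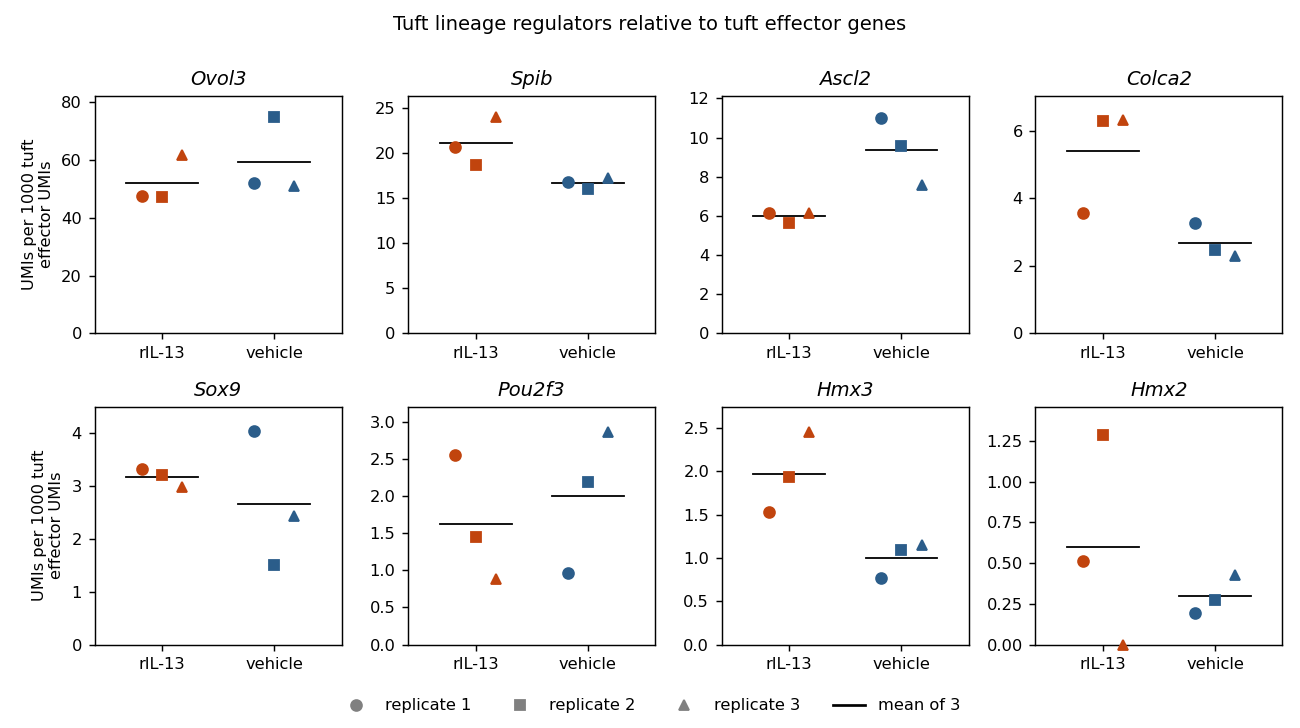
UMIs of each regulator per 1000 UMIs of the 45 listed tuft effector genes (vertical axis, a separate scale in each panel), for rIL-13 and vehicle libraries, with points shaped by replicate and lines at means of 3. Spib, Colca2 and Hmx3 are higher in all 3 rIL-13 libraries, Ascl2 is lower in all 3 (5.64 to 6.14 against 7.59 to 11.0), and the other panels overlap. Of all genes, 1.56% were higher and 11.9% lower without overlap on this scale.

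Summed, the 8 regulators held 336, 532 and 595 UMIs in rIL-13 replicates 1, 2 and 3, against 463, 790 and 594 in the vehicle replicates. As a share of listed UMIs this was 0.114%, 0.185% and 0.240% with rIL-13 (exact binomial 95% intervals 0.102 to 0.126%, 0.170 to 0.202% and 0.221 to 0.260%, counting error only), against 0.117%, 0.173% and 0.121% with vehicle (0.107 to 0.129%, 0.161 to 0.185% and 0.112 to 0.131%). The groups overlapped, and Ovol3 was the largest part of the sum in every library.

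**Figure D5:**
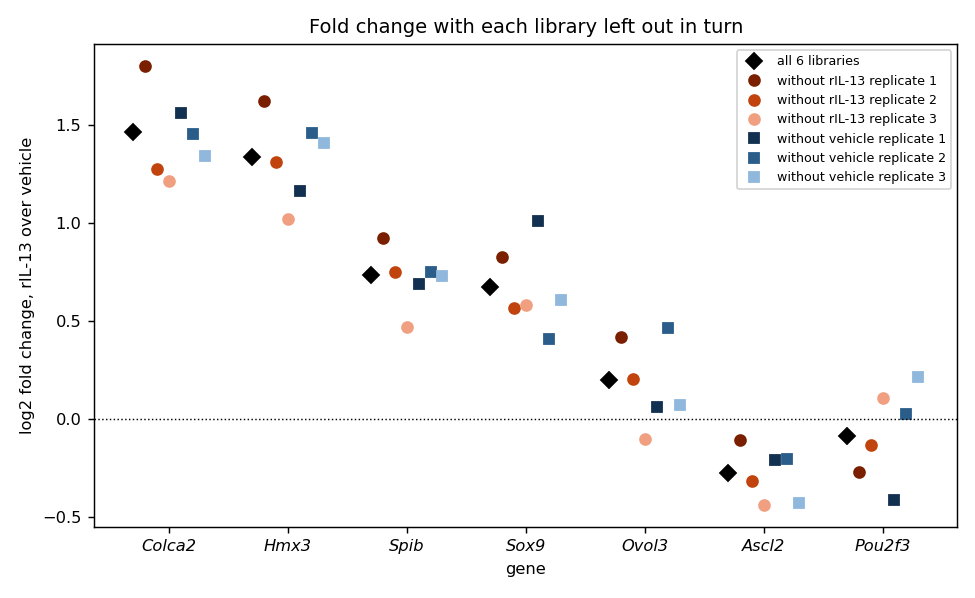
Log2 fold change of rIL-13 over vehicle (vertical axis) for 7 regulators with all 6 libraries (diamonds) and with each library left out in turn (circles for rIL-13, squares for vehicle). Colca2, Hmx3, Spib and Sox9 stay above 0 and Ascl2 below it in all of these, Colca2 passed the test without rIL-13 replicate 1 alone (1.80), and Ovol3 and Pou2f3 cross 0. Of 6099 genes tested without rIL-13 replicate 1, 29 passed, against 3 of 5135 with all 6 libraries.

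The genes whose levels ran most like each regulator over the 6 libraries differed from one regulator to the next, as measured by Pearson's r of log2 CPM across all tested genes. For Colca2 they were Sh2d7, an SH2 domain gene of the tuft effector list (r = 0.986), Fryl (0.984) and 1810037I17Rik (0.974). For Spib they were Matk, a kinase gene of the same list (0.985), Aldh3a2 (0.975) and Hacd3 (0.975). Pou2f3 was nearest to Nudt3 (0.985), the histone chaperone gene Ssrp1 (0.984) and the E-protein gene Tcf3 (0.983), Ascl2 to the oxidative stress factor gene Nfe2l2 (0.989), Cobll1 (0.981) and Atp6v1a (0.979), Sox9 to Nagpa (0.998), Mus81 (0.994) and Col16a1 (0.974), and Ovol3 to Arl3 (0.992), Pak1ip1 (0.988) and Slc16a3 (0.979). With 6 points and 5135 genes to choose from, values this high were found for each of the 6 regulators tested with the filter, and they are descriptions only.

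Other regulators of the same families and of neighbouring programmes were set beside these genes. Over all 5135 tested genes, 2 passed as higher and 1 as lower, and the median log2 fold change was -0.00. Of 42 relatives in the ETS, GFI, ASCL, SOX, HMX and OVOL families 18 are listed and 9 were tested, with 0 passing and a median of 0.20. Their smallest p belonged to the ETS genes Elk3 (0.87 ± 0.48) and Ehf (0.81 ± 0.61, edgeR adjusted p = 0.860 and 0.911). Neither Gfi1, the closest relative of Gfi1b, nor Hmx1, Ovol1 or Ovol2 is listed. Of 15 further regulators reported in tuft or other chemosensory cells 13 are listed and 10 were tested, with 0 passing and a median of 0.16, led by the forkhead gene Foxe1 (0.68 ± 0.31) and Runx1 (0.88 ± 0.51, edgeR adjusted p = 0.860 for both). Foxe1 had 36, 71 and 54 UMIs with rIL-13 and 28, 65 and 70 with vehicle, and Runx1 5, 15 and 22 against 6, 13 and 18.

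Of 50 tuft effector genes 35 were tested, 31 of them above 0, and their median was 0.49 in log2. At an unadjusted p under 0.05 there were 14 of the 35, beside 5.49% of all tested genes in either direction and 2 of the 6 tested regulators. Of these, 1 rose past the threshold, the phosphatase gene Ptpn18 (1.54 ± 0.26, edgeR adjusted p = 0.0204), and next came Pik3r5, a regulatory subunit of phosphoinositide 3-kinase gamma (1.13 ± 0.27, adjusted p = 0.255). Colca2, Hmx3, Hmx2, Spib and Sox9 had log2 fold changes above the median of the 35, and Ovol3, Pou2f3 and Ascl2 below it. That median lay within 1 SE of the values of Hmx2 (1.30 ± 1.17), Spib (0.73 ± 0.25) and Sox9 (0.67 ± 0.41). The values of Hmx2 and Hmx3 are from the unfiltered fit, and that of Hmx2 came from 1 library. Differences from the median were not tested.

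Regulators of thymic epithelium were mostly listed, while those of its other mimetic lineages, which imitate peripheral tissues, were sparse. The listed thymic epithelial regulators held 187 to 306 UMIs per library with rIL-13 and 277 to 380 with vehicle. Of 20 thymic epithelial regulators 13 are listed, without Foxn1, Aire, Fezf2 and Trp63, and of 5 tested 0 passed, with a median of 0.20 and the smallest p for the chromatin remodeller gene Chd4 (0.35 ± 0.22) and the coactivator gene Eya1 (0.40 ± 0.40). Of 26 regulators of other mimetic lineages 6 are listed, with 25 to 52 UMIs in all with rIL-13 and 31 to 52 with vehicle, and of 2 tested 0 passed, Nkx6-2 at 0.58 ± 0.44 and Cdx1 at 0.19 ± 0.42. Foxj1, Neurod1, Hnf4a and Sox8, which direct ciliated, neuroendocrine, enterocyte and microfold lineages, are not listed.

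Wnt and Notch genes were included because Ascl2 and Sox9 are Wnt targets in the intestine and Notch signals oppose secretory fates there. Of 23 Wnt genes 9 are listed and 6 were tested, 0 passed, and the median was 0.15. The Wnt targets Axin2, Lgr5 and Nkd1 are not listed. The cell cycle gene Ccnd1 had 40, 35 and 55 UMIs with rIL-13 against 9, 23 and 37 with vehicle (1.62 ± 0.37, edgeR adjusted p = 0.255), and Myc had 19, 10 and 7 against 32, 18 and 37 (-0.62 ± 0.41, adjusted p = 0.896). Of 19 Notch genes 8 are listed and 2 were tested, Hes1 at -0.00 ± 0.28 and Hes6 at -0.05 ± 0.25, with a median of -0.02 and 0 passing.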

How the data were processed

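The 3 rIL-13 and 3 vehicle MARS-seq libraries were grouped by their titles. Per the submitters' processing notes, bcl2fastq, cutadapt, STAR 2.5.2b, HTSeq and DESeq2 were used with build mm10, with no roles or order given. The authors deposited UMI counts per gene, a normalized signal (counts divided by size factors), log2 values (regularized, and their log2 fold changes) and p-values. The counts were used for every test, the signal and the regularized values for none. The test was the quasi-likelihood F test of edgeR 4.0.16 in R 4.3.3, with TMM factors, its default low-count filter (5135 genes, 93.8% of UMIs) and Benjamini-Hochberg adjustment at 0.05, two-sided, and Hmx2, Hmx3 and other genes under the filter by the same fit with 1 UMI or more. CPM uses TMM factors over all listed genes. The SE is that implied by the F statistic. The regulators and the lists were chosen with earlier results of these data known. Named genes were the regulators, the 3 most correlated genes of each tested one, the 2 smallest p of each list and the 2 most abundant genes of each marker list, and others were chosen after their values were seen. No 2 libraries were copies: chi-square per degree of freedom was 2.36 to 4.82 for every pair. It was lowest for rIL-13 replicates 2 and 3. For rIL-13 replicate 1 it was 2.49 with vehicle replicate 3, against 3.49 and 4.59 with rIL-13 replicates 2 and 3. By this measure rIL-13 replicate 1 was thus nearer to a vehicle library than to its own group, and the cause was not tested. Positions are from GENCODE M21, which held 8966 of 9088 symbols. edgeR was checked on simulated counts. Alternatives were DESeq2 1.42.0, limma 3.58.1 voom, other factors and filters, a replicate block and leaving out libraries. Protein sequences were not used here. Figures were drawn with matplotlib 3.10.9.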

Additional observations from a re-analysis of the deposited data

How the results depend on the processing

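Of 124 values of the regulators' log2 fold change under other settings, 114 kept their sign and stayed short of the threshold. Colca2 passed in 2 of them, without rIL-13 replicate 1 (1.80) and with vehicle replicate 3 left out as well, a setting added after seeing the data (1.69), and the other 8 turned their sign. Pou2f3 did so with limma voom (0.00332), without rIL-13 replicate 3 (0.11), vehicle replicate 2 (0.02) or vehicle replicate 3 (0.21) and with rIL-13 replicate 1 and vehicle replicate 3 both left out (0.0362). Ovol3 did so without rIL-13 replicate 3 (-0.11) and with tuft effector UMIs as library size (-0.19, or 0.14 relative to the median of all genes, which that scaling moved to -0.33), and Hmx2 without rIL-13 replicate 2 (-0.26). Genes called over the whole table numbered 3, against 6 with DESeq2, 0 with limma voom, 7 with no filter, 13 with the replicate number as a block, 1 with tuft effector UMIs as library size, 31 with those 2 libraries left out, and 1 to 29 with each library left out in turn (29 without rIL-13 replicate 1, 23 without vehicle replicate 3). With the block no regulator passed (Colca2 1.40, adjusted p = 0.164), and same-numbered libraries had correlations of -0.07, 0.07 and -0.22 (deviations from group means), which does not pair them. The Wnt list's median turned to -0.48 with no filter. Over the libraries left out in turn, Pou2f3 ran from -0.41 to 0.21, Hmx2 from -0.26 to 1.84 and Ovol3 from -0.11 to 0.46. The cause was not tested for any of them. Depth limits Hmx2, Hmx3 and Pou2f3, at 0 to 20 UMIs per library.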
